A study of Mus musculus with 29 samples.

Results

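The neuregulins and the ErbB receptors were followed across retinal bipolar cells and photoreceptors of the mouse. The family comprised 8 of the 24062 genes in the RNA table, namely the ligand genes Nrg1, Nrg2, Nrg3 and Nrg4 and the receptor genes Egfr, Erbb2, Erbb3 and Erbb4, each found by its exact symbol. The family was chosen with the RNA values of these libraries known, so its RNA levels are given as a description without a test, whereas the accessibility of chromatin near the genes and the RNA of other genes of the pathway were tested.

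RNA-seq was available from 15 libraries, 3 from each of 5 populations, and ATAC-seq, which reads open chromatin by transposase insertion, from 12 libraries, 2 from each of 6 populations. Bipolar cells came from mice at postnatal day 42 to 48 that carried GFP at 1 Otx2 allele (Otx2-GFP+/-), and pan-BC denotes all bipolar cells sorted by that signal. ON-BC and OFF-BC came from mice that also carried Grm6-YFP (Grm6-YFP+/+), a transgene driven by the promoter of the ON bipolar glutamate receptor. The YFP-positive cells were taken as ON-BC and the YFP-negative cells, sorted a second time, as OFF-BC, and the type BC5D, in which the transgene is weak, probably fell in neither gate. ON-BC and pan-BC were sorted once, so the number of sorts cannot be told apart from the OFF-BC gate. For the ATAC-seq pan-BC libraries the labels give Grm6-YFP+/+ and the study's own sample list gives a genotype without it. Rods carried Nrl-eGFP, green cones carried Opn1mw-GFP, and the cells called blue cones were the photoreceptors of Nrl-eGFP mice without Nrl (NrlKO), which stand in for the scarce S-cones and are not native cones. All photoreceptor libraries were at day 56 and had been made for an earlier study, so that cell class cannot be told apart from age, genotype and study in any comparison of bipolar cells with photoreceptors. Each library was a bulk sample, in which fewer cells expressing a gene and less RNA per cell cannot be told apart.

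Neuregulins are growth factors with an EGF-like domain, and most are made as membrane-anchored precursors that proteases release. ERBB3 and ERBB4 bind neuregulins directly, EGFR binds EGF and its relatives, and ERBB2, which has no ligand of its own, serves as the partner in heterodimers. ERBB3 has little kinase activity, and the dimers signal through the RAS-MAPK and PI3K-AKT cascades. In the brain, neuregulin and ERBB4 are best known from the formation and plasticity of synapses, with ERBB4 prominent in inhibitory interneurons.

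The RefSeq spans of the genes differ widely in length (coordinates in GRCm38). Nrg1 occupies chr8:31814551-32009504 on the minus strand, 195.0 kb with 3 curated start sites, Nrg3 occupies chr14:38368951-39473088 on the minus strand, and Erbb4 occupies chr1:68032186-69108059 on the minus strand. Nrg3 spans 1104.1 kb and Erbb4 1075.9 kb, whereas Erbb2 spans 25.2 kb and Erbb3 22.1 kb. Of the 110715 accessible regions of 200 bp in the ATAC table, 52 had a start site of the family as their nearest start site: 19 for Nrg1, 17 for Erbb4, 7 for Nrg3, 3 each for Egfr and Erbb3, and 1 each for Nrg2, Nrg4 and Erbb2. In the account below, the place of a region is its distance from the nearest start site of the gene, negative when upstream.

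The 7 regions on which the account of accessibility turns are printed first, from the plus strand of GRCm38 (RefSeq annotation). All 7 lie outside exons. Capitals mark E-boxes (CANNTG), the motif bound by basic helix-loop-helix factors. None of the 7 holds TAATCC, the K50 homeodomain motif of OTX2 and CRX, or TAATTA or TAATTG, which are Q50 homeodomain motifs, on either strand. The first is the Nrg1 region with the largest difference between pan-BC and rods, the second the Nrg1 region with the largest excess in ON-BC over OFF-BC, and the third a distal Nrg3 region high in all bipolar populations. The next 3 are Erbb4 regions, of which the third was high in cones, and the last is the Egfr region highest in pan-BC.
Nrg1 +17.5 kb, chr8:31901225-31901424: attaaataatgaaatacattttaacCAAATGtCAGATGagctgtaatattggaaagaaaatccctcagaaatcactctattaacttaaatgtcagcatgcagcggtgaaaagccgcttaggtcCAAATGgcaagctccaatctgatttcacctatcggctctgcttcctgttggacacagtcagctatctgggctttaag
Nrg1 +86.4 kb, chr8:31832317-31832516: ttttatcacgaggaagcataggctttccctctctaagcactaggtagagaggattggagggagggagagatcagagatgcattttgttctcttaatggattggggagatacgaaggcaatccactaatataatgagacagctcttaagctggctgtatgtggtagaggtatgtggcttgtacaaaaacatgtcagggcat
Nrg3 -59.8 kb, chr14:39532794-39532993: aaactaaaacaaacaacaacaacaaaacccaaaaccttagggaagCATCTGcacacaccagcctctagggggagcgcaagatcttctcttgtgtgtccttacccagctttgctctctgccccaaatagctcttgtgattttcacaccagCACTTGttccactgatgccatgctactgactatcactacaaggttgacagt
Erbb4 +221.1 kb, chr1:68886908-68887107: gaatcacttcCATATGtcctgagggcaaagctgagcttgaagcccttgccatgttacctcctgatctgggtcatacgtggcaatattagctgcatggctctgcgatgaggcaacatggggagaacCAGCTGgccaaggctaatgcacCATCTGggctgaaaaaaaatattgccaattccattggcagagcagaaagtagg
Erbb4 +133.0 kb, chr1:68974985-68975184: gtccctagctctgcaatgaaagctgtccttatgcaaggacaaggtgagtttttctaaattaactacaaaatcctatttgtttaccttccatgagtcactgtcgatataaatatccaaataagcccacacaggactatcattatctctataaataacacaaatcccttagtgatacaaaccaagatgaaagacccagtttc
Erbb4 -189.0 kb, chr1:69296920-69297119: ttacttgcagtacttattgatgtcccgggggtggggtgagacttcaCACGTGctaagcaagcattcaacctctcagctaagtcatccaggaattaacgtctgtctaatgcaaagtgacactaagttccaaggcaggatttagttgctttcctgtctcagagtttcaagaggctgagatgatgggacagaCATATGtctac
Egfr +68.1 kb, chr11:16820193-16820392: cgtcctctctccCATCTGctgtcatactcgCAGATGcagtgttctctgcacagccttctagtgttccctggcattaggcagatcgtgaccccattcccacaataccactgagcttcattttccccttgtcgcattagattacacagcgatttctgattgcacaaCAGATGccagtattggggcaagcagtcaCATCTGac

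Over all 52 regions of the family, 10 (19.2%) held TAATCC on either strand, beside 21.8% of all 110715 regions. TAATTA or TAATTG was found in 6 of the 52 (11.5%, beside 11.4% of all regions) and an E-box in 38 (73.1%, beside 68.7%). The 2 largest sets did not differ greatly in the K50 letters, which were found in 5 of 19 regions for Nrg1 and 4 of 17 for Erbb4. The median GC content was 45.75% in the family's regions and 50% in all regions. Matches of TAATTA and TAATTG can overlap each other, and a region with both was counted once. A match is a string of letters, not a bound site.

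RNA libraries held between 12329548 and 26266746 counted reads (median 15569580) and ATAC libraries between 4176776 and 12345845 (median 6648830). Deposited values are reads divided by 1 size factor per library and are called normalised counts here, and RPKM, computed from the recovered reads, is used wherever genes are compared with each other. The sorted populations were checked against markers. All 4 ON bipolar markers (Trpm1, Grm6, Isl1, Prkca) were higher in every ON-BC library than in every OFF-BC library. Of the 3 OFF markers, Tacr3 and Grik1 were higher in OFF-BC and Vsx1 was higher in ON-BC (847.5 to 1049 normalised counts, against 175.5 to 350.9), which goes against its use as an OFF marker here. Summed rod markers reached 16700 to 20320 in ON-BC and 838.6 to 1369 in OFF-BC, and summed cone markers 3925 to 4551 and 20110 to 89040. In rods the rod markers summed to 1382000 to 2003000, and in blue cones the cone markers summed to 1370000 to 1583000.

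Nrg1 was the dominant neuregulin of bipolar cells and was close to absent from photoreceptors. In pan-BC its normalised counts were 1269, 912.9 and 1003, and in ON-BC they were 1400, 1277 and 1270. In OFF-BC they were 108.4, 197.0 and 158.9. Every ON-BC library was thus above every pan-BC library, though barely (1270 against 1269 at the closest). Every pan-BC library was far above every OFF-BC library (912.9 against 197.0 at the closest). Rods gave 2.91, 0 and 0, a total of 3 reads, and blue cones gave 0, 0.759 and 0, a single read. The mean of ON-BC was 1316 ± 73.3, that of pan-BC 1062 ± 185 and that of OFF-BC 154.8 ± 44.5 (SD, n = 3 libraries each). Over the pooled reads, Nrg1 in ON-BC was 8.55 times its level in OFF-BC (95% exact interval 7.72 to 9.49, counting error only), a log2 difference of 3.12 (SE 0.44) in the limma fit. The pooled ratio to rods was 1040 (95% exact interval 355 to 5030) and to blue cones 4240 (761 to 168000), intervals that are wide because the photoreceptors had so few reads. A log2 difference against such low levels depends on the pseudocount of 1, and stood at 9.38 (SE 0.44) against rods and 9.77 (SE 0.44) against blue cones.

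Nrg3, a neural neuregulin that binds ERBB4, had the opposite order within bipolar cells. Its normalised counts were 52.5, 94.9 and 81.7 in OFF-BC, 31.9, 32.3 and 24.5 in pan-BC, and 13.4, 9.80 and 24.6 in ON-BC. All 3 OFF-BC libraries were above all others, while pan-BC and ON-BC overlapped by 1 library. No read was counted in any of the 6 photoreceptor libraries, and against a floor of 3 reads over the group pan-BC Nrg3 was at least 29.2-fold higher than that of rods and at least 39.8-fold higher than that of blue cones. The mean was 76.4 ± 21.7 in OFF-BC and 15.95 ± 7.73 in ON-BC (SD, n = 3), a log2 difference of -2.24 (SE 0.41) for ON-BC minus OFF-BC.

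Nrg4 and Nrg2 were low in all populations. Nrg4, best known as a factor secreted by fat tissue, was the only neuregulin with a higher level in blue cones than in bipolar cells. Its counts were 18.1, 19.7 and 19.2 in blue cones, 16.5, 15.4 and 15.1 in rods, 6.38, 15.1 and 17.1 in pan-BC, 5.16, 17.6 and 15.4 in ON-BC, and 8.94, 15.6 and 7.72 in OFF-BC. The blue cone libraries were above all others, whereas rods, pan-BC, ON-BC and OFF-BC overlapped with each neighbour in the order of means. Nrg2, the closest relative of Nrg1, gave 5.32, 10.1 and 14.7 in pan-BC, 12.3, 9.61 and 5.52 in OFF-BC, and 5.16, 2.94 and 3.08 in ON-BC. In rods it gave 3.88, 3.07 and 3.24 and in blue cones 1.504, 3.04 and 2.96, so that the 3 OFF-BC libraries lay above the 3 ON-BC libraries by a small margin and above all photoreceptors. The log2 difference of ON-BC minus OFF-BC was -1.07 (SE 0.47) for Nrg2 and 0.13 (SE 0.47) for Nrg4.

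Among the receptors, Erbb4, the neuregulin receptor with a full kinase of its own, had its high level in OFF-BC. Its normalised counts were 298.4, 352.0 and 250.5 in OFF-BC, 64.9, 57.5 and 56.3 in pan-BC, and 5.16, 3.92 and 1.03 in ON-BC. The 3 bipolar populations did not overlap. Rods had no read, and blue cones had 1 read (0.752, 0 and 0). The mean was 300.3 ± 50.8 in OFF-BC, 59.6 ± 4.65 in pan-BC and 3.37 ± 2.12 in ON-BC (SD, n = 3). The pooled ON-BC level was 0.0113 of the OFF-BC level (95% exact interval 0.00539 to 0.0209), and the log2 difference was -6.24 (SE 0.44), which moved to -5.76 without ON-BC replicate 3. Against the floor of 3 reads in rods, Erbb4 was at least 292-fold higher in OFF-BC, at least 58.3-fold higher in pan-BC and at least 3.3-fold higher in ON-BC. The ratio of OFF-BC to the single read of the blue cones was 1200 (95% exact interval 214 to 47300).

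Egfr, Erbb2 and Erbb3 were near the floor in every population and did not pass the filter on low counts, which the other 5 members passed. Egfr, the receptor for EGF, gave 1.94, 5.12 and 6.48 in rods and 0, 0 and 3.70 for blue cones. It gave 0, 8.07 and 0 in pan-BC, 7.22, 0 and 0 in ON-BC, while OFF-BC gave 2.24, 0 and 1.10. Erbb2 ranged from 0 to 6.71 and had at least 1 library at 0 in each population. Erbb3 gave 11.7, 5.04 and 4.89 in pan-BC and 0, 3.07 and 1.08 in rods, without overlap, and lay between 1.504 and 6.62 in the other 3 populations. At this depth no order of the populations could be read for Egfr or Erbb2, since every neighbouring pair of populations in the order of means overlapped.

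**Figure D1:**
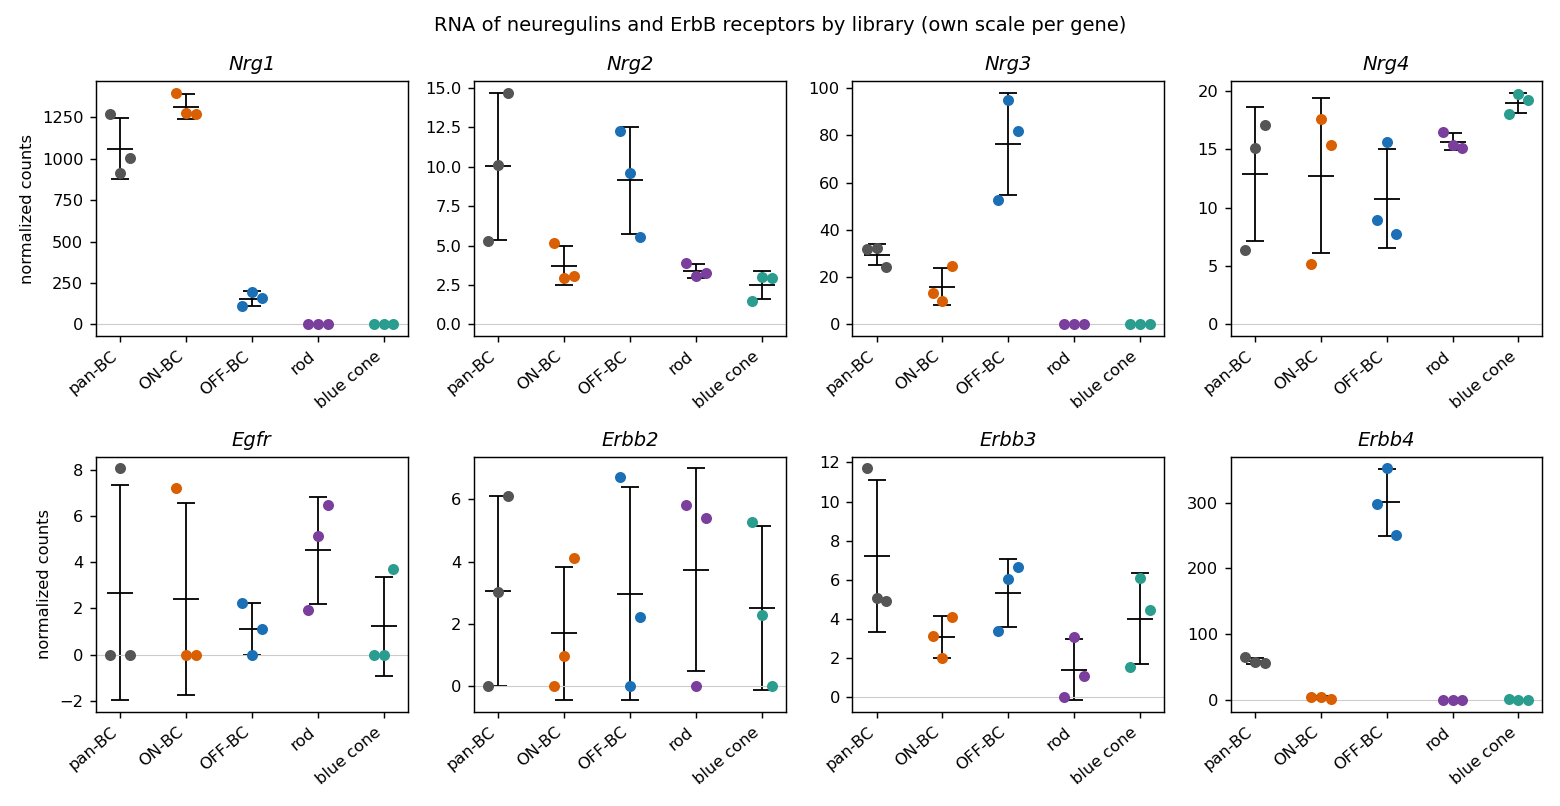
Normalised counts of the 8 family genes in each of the 15 RNA-seq libraries, 1 panel per gene, each panel on its own scale, with a point per library, a bar at the mean of 3 libraries and an error bar of 1 SD. Nrg1 was highest in ON-BC (mean 1316), Nrg3 and Erbb4 in OFF-BC (means 76.4 and 300.3), and Egfr, Erbb2 and Erbb3 stayed near 0 throughout.

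Counted as members whose libraries did not overlap, 5 of the 8 were higher in pan-BC than in rods (Nrg1, Nrg2, Nrg3, Erbb3 and Erbb4) and none was lower, where 28.9% of all 24062 genes were without overlap higher and 23.1% lower. Against blue cones 4 were higher (Nrg1, Nrg2, Nrg3 and Erbb4) and 1 was lower (Nrg4), with 27.2% and 21.9% of all genes. In ON-BC 1 member was higher than in OFF-BC (Nrg1) and 3 were lower (Nrg2, Nrg3 and Erbb4), with 12.1% and 14.4% of all genes. Between rods and blue cones Nrg2 was higher in rods and Nrg4 lower, with 18.6% and 19.1% of all genes. Because the family was chosen on these values, nothing is read from the counts. The comparisons with rods and with blue cones share the pan-BC libraries.

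On the scale per length, in reads per kilobase of RefSeq exon, scaled to library depth (RPKM), Nrg1 stood at 10.1 ± 0.70 in ON-BC, 8.07 ± 1.34 in pan-BC and 1.20 ± 0.40 in OFF-BC (SD, n = 3). The ON-BC level was above that of 76.8% of the 22511 genes with a known length. In OFF-BC, Nrg3 at 1.23 ± 0.40 RPKM was level with Nrg1, and Erbb4 stood at 1.62 ± 0.32, above 56.0% of genes. Nrg4 lay between 0.364 and 0.520 in all 5 populations and Nrg2 did not exceed 0.104. Egfr, Erbb2 and Erbb3 did not exceed 0.0769. Of the summed RPKM of the 4 neuregulins, Nrg1 thus made up 93.4% in ON-BC and 88.9% in pan-BC. In OFF-BC Nrg1 and Nrg3 shared the sum nearly evenly, at 41.5% and 42.6%, and in photoreceptors what remained was Nrg4, at 92.4% of the sum in rods and 95.8% in blue cones. Of the summed receptors, Erbb4 made up 93.9% in OFF-BC and 68.9% in pan-BC. In ON-BC the receptors summed to 0.0962 RPKM, and none of the 4 made up more than 33.8%.

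**Figure D2:**
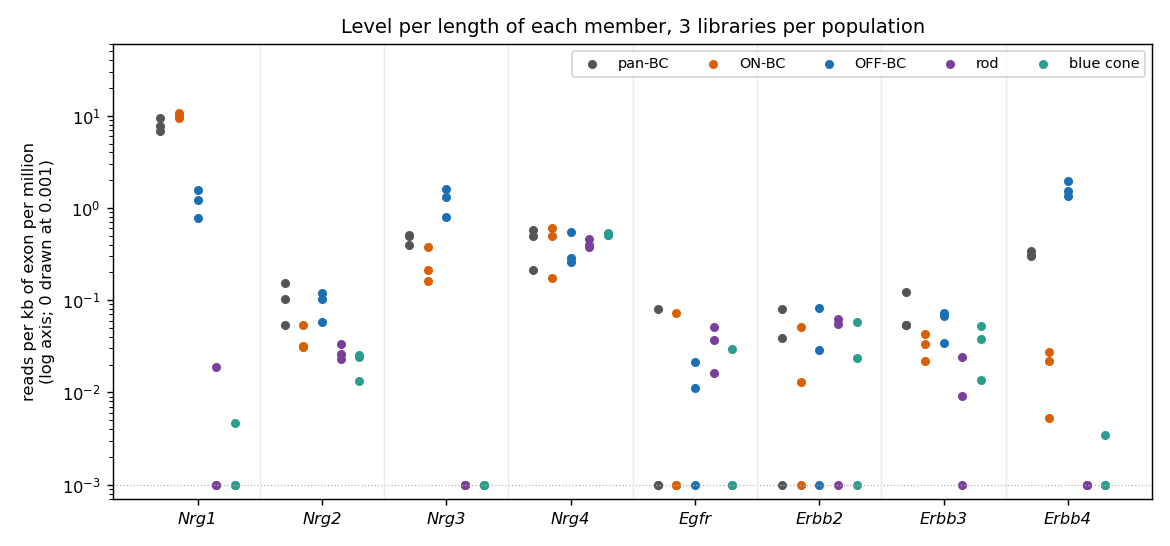
Level per length (RPKM, log axis) of each family gene in the 5 populations, with a point per library and 0 drawn at 0.001. Nrg1 leads in pan-BC and ON-BC (8.07 and 10.1 RPKM), Erbb4, Nrg3 and Nrg1 lie close together in OFF-BC (1.62, 1.23 and 1.20), and Nrg4 is the highest member in both photoreceptor populations.

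Markers of other cells were also unequal between ON-BC and OFF-BC. The 6 amacrine markers summed to 919.8 to 1098 in OFF-BC and 327.3 to 479.1 in ON-BC. Of the 6, 3 (Slc6a9, Tfap2b and Pax6) did not overlap, whereas the defining marker Gad1 was at 26.4 to 29.1 in OFF-BC and 22.7 to 65.7 in ON-BC. Slc6a9 made the largest part of the sum, with means of 566.3 in OFF-BC and 158.9 in ON-BC. It was higher still in rods (2271) and blue cones (1476), and the sum in rods was 2115 to 2448, so the sum does not follow amacrine RNA alone. The 3 microglial markers summed to 21.2 to 65.1 in OFF-BC and 2.05 to 12.7 in ON-BC, with 2 of 3 not overlapping. The 8 Müller glial markers summed to 8086 to 12770 in OFF-BC and 6561 to 7781 in ON-BC, with 3 of 8 not overlapping. These 3 were Glul, Slc1a3 and Clu. Most of the sum was Clu, with means of 7941 in OFF-BC, 5380 in ON-BC and 13090 in blue cones. Rlbp1, Aqp4, Apoe, Vim and Dkk3 went the other way, with higher means in ON-BC and overlapping libraries. All 4 cone markers were higher in OFF-BC. In the other direction, ganglion cell markers summed to 140.3 to 245.9 in ON-BC and 41.4 to 78.4 in OFF-BC, with 2 of 5 not overlapping. These 2 were Slc17a6, at 0 in OFF-BC, and Nefl. Most of the ON-BC sum was Nefl, with means of 129.7 in ON-BC and 11.7 in OFF-BC. Sncg had a higher mean in ON-BC with overlapping libraries. Rbpms (23.1 in ON-BC, 26.8 in OFF-BC) and Pou4f1 (5.40 and 5.63) went the other way, also with overlap. Endothelial markers summed to 27.7 to 34.3 in ON-BC and 9.61 to 21.2 in OFF-BC, with 1 of 3 not overlapping. All 4 rod markers were higher in ON-BC. Nrg1 had 3 reads in the rod libraries, and Erbb4 had 1 read in the blue cone libraries. The part of RNA from rods, cones, amacrine cells, glia, microglia, ganglion cells and endothelium in the levels of the family was not tested.

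The genes whose pattern over the 15 libraries was most like that of Nrg1 were Micalcl (Pearson r = 0.9946), Ank3 (0.9929), which encodes the scaffold ankyrin-G of the axon initial segment, and Sez6l (0.9928). Like Nrg1, Micalcl was highest in ON-BC, with means of 111.2 in ON-BC, 59.2 in pan-BC and 23.7 in OFF-BC. Ank3 was also highest in ON-BC (5974) but, unlike Nrg1, had means of 958.8 in rods and 858.8 in blue cones. Sez6l was highest in pan-BC (98.3, against 82.2 in ON-BC). For Erbb4 they were Postn (0.9956), which encodes the matrix protein periostin, Tekt1 (0.9879), which encodes a filament protein of cilia, and Fmnl1 (0.9869), a formin. Postn had means of 427.3 in OFF-BC, 99.6 in pan-BC and 4.004 in ON-BC and was at 0 in both photoreceptor populations. These correlations are of log2 normalised counts across genes chosen from all genes tested, and the libraries fall into groups, so they describe likeness of pattern and nothing more.

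By nearest start site, the regions of Nrg1, Erbb4, Nrg3 and Egfr were mostly more open in pan-BC than in rods and cones. No region assigned in this way to the other members was called, and regions taken from inside the genes are given further below. The test was limma against a 2-fold change over 108448 regions, with Benjamini-Hochberg adjusted p under 0.05, and 51 of the 52 regions could be tested. Between pan-BC and rods 42 of the 51 were more accessible in pan-BC (82.4%) and none was less accessible by limma, at an unadjusted p under 0.05, by edgeR or by DESeq2. Over all regions 38.9% were called higher and 10.4% lower. The 42 comprised 16 of 18 tested for Nrg1, 16 of 17 for Erbb4, 7 of 7 for Nrg3 and 3 of 3 for Egfr. None of the 6 regions of the other members was called. Their median log2 differences were 1.49 for Nrg2, -1.98 for Nrg4, -1.47 for Erbb2 and -0.84 for Erbb3. Between pan-BC and cones (2 blue and 2 green cone libraries) 39 of the 51 were higher (76.5%) and 1 was lower, beside 27.8% and 7.42% of all regions. The 39 comprised 15 for Erbb4, 14 for Nrg1, 7 for Nrg3 and 3 for Egfr. The median log2 difference of the family's regions was 4.94 against rods and 3.87 against cones, where that of all regions was 1.16 and 0.46. Regions of 1 gene are neighbours and not replicates, and both comparisons use the same pan-BC libraries. The paper built its list of retinal open regions by combining peaks across populations, so a region can enter through the population where it is high. No rod peak overlapped a region of Nrg1, Nrg3 or Egfr, and for Erbb4 1 of 17 had one in each rod library. The counts can thus in part reflect how regions entered, here, over all regions and in the comparisons below, which was not tested. Scaling by TMM lowered the median of all regions to 0.97 against rods and 0.21 against cones.

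For Nrg1, Erbb4 and Nrg3 the region with the largest difference between pan-BC and rods is given with its libraries. At Nrg1 +17.5 kb, in an intron, the pan-BC libraries had normalised counts of 118.4 and 157.9, ON-BC 224.0 and 232.8, and OFF-BC 53.9 and 13.6. Both rod libraries were at 0 and the 4 cone libraries had 1 read in all, so that pan-BC was at least 130-fold higher than rods (floor of 3 reads over the group; limma adjusted p = 1.53e-06). At Erbb4 +221.1 kb, also in an intron, pan-BC had 149.6 and 209.8, ON-BC 255.3 and 320.7, and OFF-BC 67.4 and 25.3, against 0.78 and 1.36 in rods. The pooled ratio of pan-BC to rods there was 170 (95% exact interval 57.9 to 827; limma adjusted p = 1.71e-05). In both regions the order was ON-BC, pan-BC, OFF-BC and then photoreceptors. At Nrg3 the region 470 bp upstream of the start site had 124.0 and 215.5 in pan-BC and 0 and 1.36 in rods, a ratio of 245 (67.5 to 2030; limma adjusted p = 4.84e-07). The distal Nrg3 region at -59.8 kb had 112.0 and 158.5 in pan-BC and 107.5 and 152.3 in ON-BC. It had 67.4 and 28.2 in OFF-BC against 0 and 2.03 in rods.

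At Egfr the RNA and the chromatin stood apart. All 3 of its regions, each in an intron, were called more accessible in pan-BC than in rods and than in cones, although its RNA was at 0 in 2 of 3 pan-BC libraries. At Egfr +68.1 kb ON-BC had 112.0 and 149.3, pan-BC 73.6 and 94.7, OFF-BC 94.3 and 46.7 and rods 0 and 2.03, a pooled ratio of pan-BC to rods of 79.0 (95% exact interval 26.7 to 386). At Egfr +20.7 kb pan-BC had 46.4 and 39.9 and both rod libraries were at 0. The region nearest the start site of Egfr was the one at +20.7 kb, so no accessible region of the table was assigned at its promoter.

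Start sites differed in kind among the family. The regions at the promoters of Nrg1 (-232 bp), Nrg3 (-470 bp) and Erbb4 (-536 bp) were open in bipolar cells and nearly closed in rods. At Nrg1 -232 bp the counts were 60.8 and 98.1 in pan-BC and 0 and 1.36 in rods (log2 difference 5.67, SE 0.54, limma adjusted p = 1.19e-06), and at Erbb4 -536 bp they were 58.4 and 97.5 in pan-BC and 0 and 2.71 in rods (5.31, SE 0.71, limma adjusted p = 4.36e-05). By contrast the Nrg2 start site was open in every library, with pan-BC at 137.6 and 126.6, ON-BC at 134.4 and 158.1, OFF-BC at 126.6 and 165.5, rods at 36.6 and 59.0 and cones at 38.4 to 78.1. Its pan-BC excess over rods had a log2 value of 1.49 (SE 0.32) and was not called (limma adjusted p = 0.128). Weak signal was present at Erbb2 -35 bp, with 6.40 and 10.8 in pan-BC and 21.8 and 28.5 in rods, and at Erbb3 -64 bp, with 4.80 and 6.84 against 15.6 and 9.49. The region nearest Nrg4, at +31.3 kb, had 8.00 and 1.14 in pan-BC and 17.1 and 15.6 in rods. None of the 6 regions of Nrg2, Nrg4, Erbb2 and Erbb3 was called by limma or DESeq2 in any of the 4 comparisons, and at an unadjusted p under 0.05 and by edgeR there were 2 calls each, 1 higher in ON-BC than in OFF-BC and 1 higher in rods than in cones.

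Within bipolar cells, regions around Nrg1 were called higher in ON-BC, as its RNA was by its levels, whereas regions around Erbb4 were called in both directions. Between ON-BC and OFF-BC 8 of the 51 regions were called, 7 higher in ON-BC (13.7%) and 1 lower (1.96%), beside 3.35% and 2.13% of all regions. At an unadjusted p under 0.05 the numbers were 14 and 1. Nrg1 had 5 regions higher in ON-BC and none lower, also none lower at an unadjusted p under 0.05, by edgeR or by DESeq2. Erbb4 had 2 higher and 1 lower in ON-BC. The median log2 difference was 0.99 for the family's regions and 0.15 for all regions, and the latter was -0.07 after TMM scaling, under which all regions divided into 2503 higher and 2675 lower in place of 3630 and 2310. With 2 libraries a group the number of calls was not stable, at 4 without ON-BC replicate 1, 2 without ON-BC replicate 2, 4 without OFF-BC replicate 1, 3 without OFF-BC replicate 2, and 5 without either rod replicate.

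At Nrg1 +86.4 kb, in an intron, ON-BC had 140.4 and 156.7 normalised counts and OFF-BC 5.39 and 1.95, with pan-BC between them at 92.8 and 113.5 and photoreceptors from 0 to 2.59. The log2 difference was 5.11 (SE 0.81, limma adjusted p = 0.00337), and this was the one call of the 8 that was kept under all 19 alternatives, those without 1 library included. At Nrg1 +66.0 kb ON-BC had 71.7 and 117.1 and OFF-BC 2.69 and 1.95 (limma adjusted p = 0.00509, lost without ON-BC replicate 2). The other 3 called Nrg1 regions, at -29.4, +41.8 and +6.5 kb (the last chr8:31943506-31943705), had log2 differences from 4.04 to 4.68. Another Nrg1 region at +6.5 kb, from a different start site (chr8:32002873-32003072), was not called. It had the opposite order, with 11.9 and 11.7 in ON-BC and 32.3 and 33.1 in OFF-BC. At Nrg1 +41.8 kb the ON-BC replicates themselves were far apart, at 52.3 and 11.7. The promoter of Nrg1 at -232 bp did not follow, with 65.7 and 92.2 in ON-BC and 78.1 and 72.0 in OFF-BC, and a log2 difference of 0.05 (SE 0.54, limma adjusted p = 1). The downstream start site of Nrg1 had 131.4 and 101.0 in ON-BC and 66.0 and 25.3 in OFF-BC and was not called (1.47, SE 0.67, limma adjusted p = 0.919).

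Erbb4 RNA was far lower in ON-BC than in OFF-BC, yet 2 of its intronic regions were called more accessible in ON-BC. At Erbb4 +133.0 kb ON-BC had 143.3 and 140.6 and OFF-BC 8.08 and 3.89, a log2 difference of 4.42 (SE 0.80, limma adjusted p = 0.00948). The call was lost without ON-BC replicate 1 (log2 difference 4.41), ON-BC replicate 2 (4.44) or OFF-BC replicate 2 (3.98). At Erbb4 +367.9 kb ON-BC had 44.8 and 35.1 and OFF-BC 2.69 and 1.95 (limma adjusted p = 0.0415, lost without any 1 of the 8 libraries of pan-BC, ON-BC, OFF-BC and rods). The promoter region at -536 bp was open in both, at 44.8 and 82.0 in ON-BC and 86.2 and 78.9 in OFF-BC, with a log2 difference of -0.44 (SE 0.71, limma adjusted p = 1).

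A single region of the family was called more accessible in OFF-BC than in ON-BC. It was also the single region called more accessible in cones than in pan-BC. At Erbb4 -189.0 kb, upstream of the gene, OFF-BC had 67.4 and 16.6 and ON-BC 2.99 and 0, with a log2 difference of -4.12 (SE 0.62, limma adjusted p = 0.0037). The call was lost without OFF-BC replicate 1 (log2 difference -3.14) and without ON-BC replicate 2 (-3.12). Blue cones had 142.5 and 133.7, green cones 105.3 and 111.3, rods 46.7 and 24.4, and pan-BC 12.8 and 13.7, and the log2 difference of pan-BC minus cones was -3.11 (limma adjusted p = 0.00265). The authors' peaks, called in each library, covered it in 2 of 2 libraries of blue cones, rods, single-sorted green cones and double-sorted green cones, in 1 of 2 of OFF-BC, and in none of ON-BC or pan-BC. All 4 cone markers were higher in OFF-BC than in ON-BC by RNA, and 4 of the 26 regions nearest the cone marker genes were called less accessible in ON-BC than in OFF-BC. Their part in this region was not tested.

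**Figure D3:**
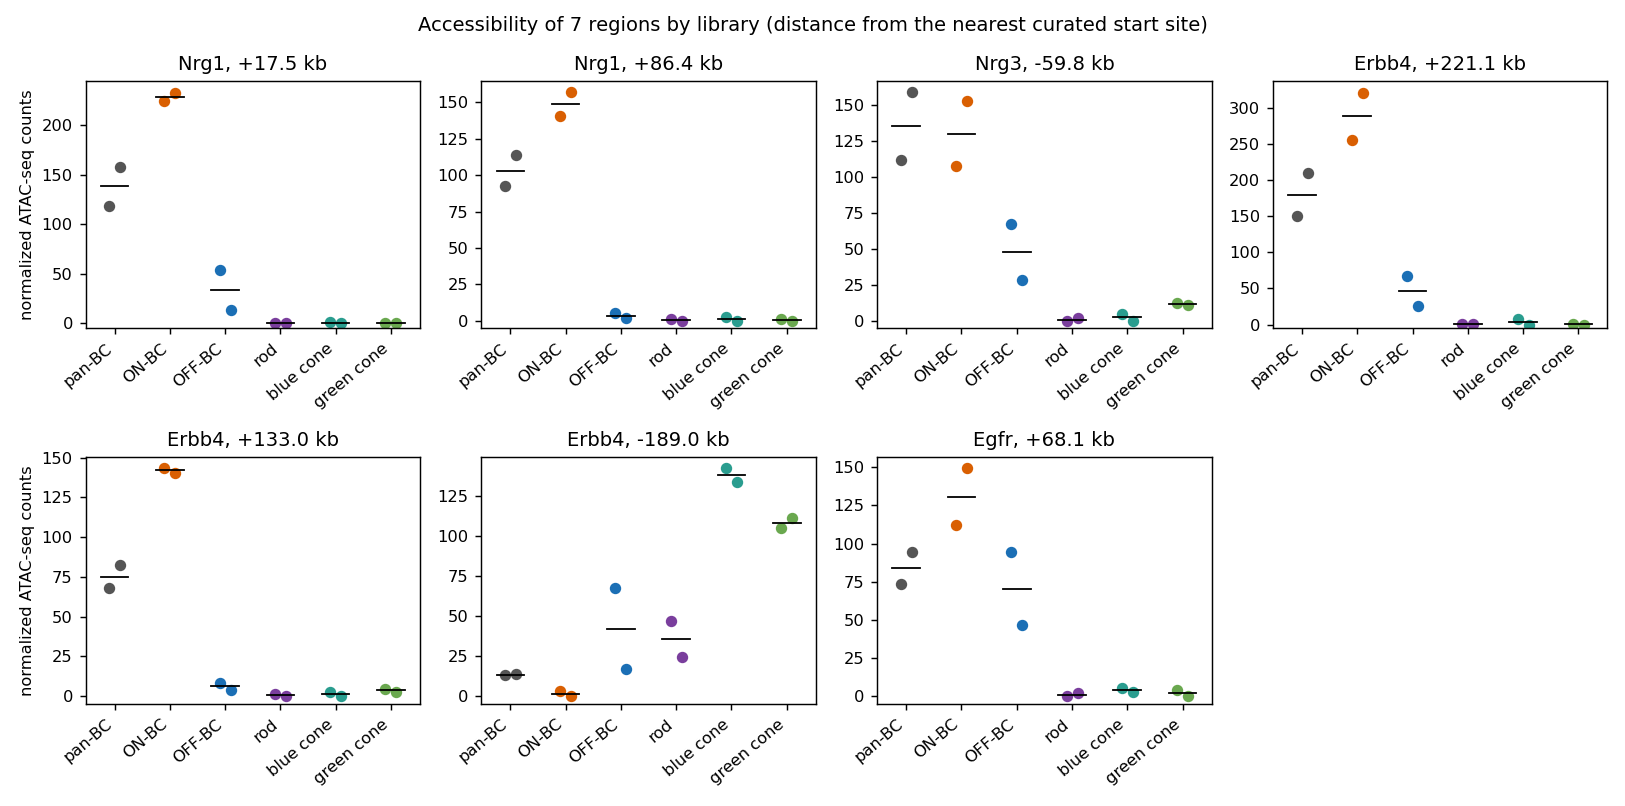
Normalised ATAC-seq counts of the 7 printed regions in each of the 12 libraries, 1 panel per region with its own scale, with a point per library and a bar at the mean of 2 libraries. Nrg1 +86.4 kb and Erbb4 +133.0 kb are high in ON-BC and low in OFF-BC, and Erbb4 -189.0 kb shows the reverse with its highest values in cones.

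**Figure D4:**
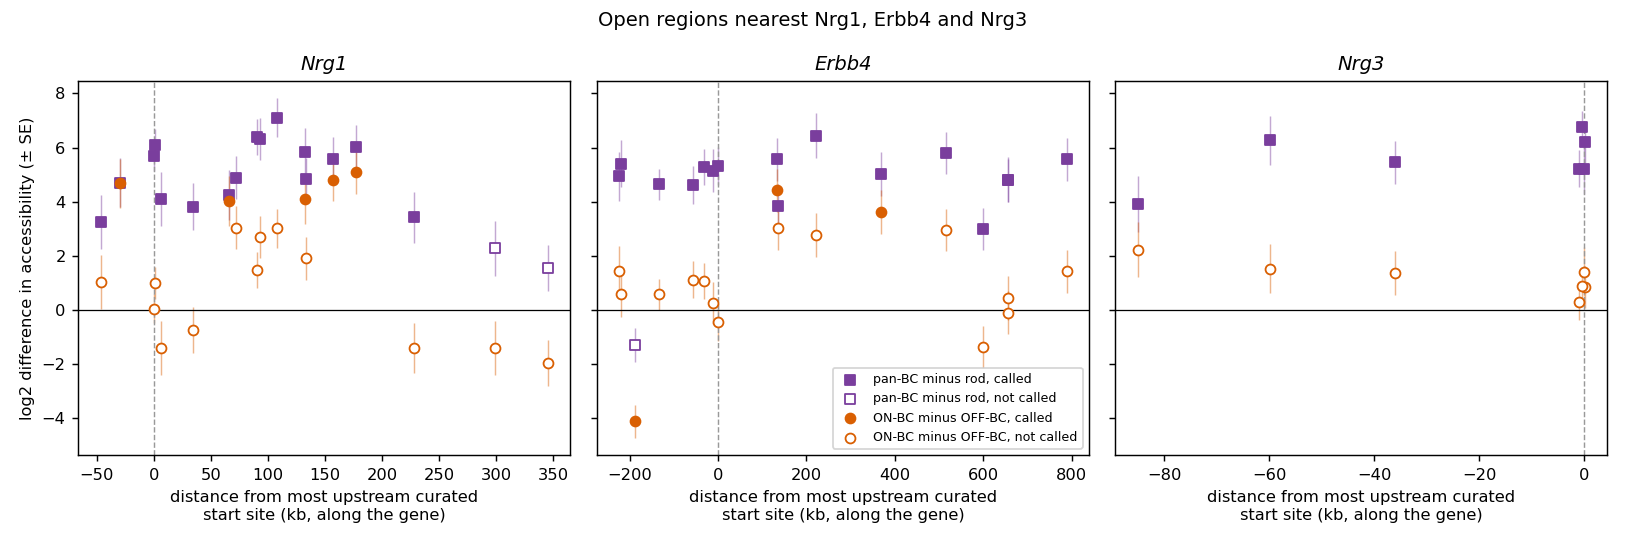
Log2 difference in accessibility (± SE) of each tested region of Nrg1, Erbb4 and Nrg3 against its distance in kb from the most upstream start site of the gene, with squares for pan-BC minus rod, circles for ON-BC minus OFF-BC and filled symbols where limma called the region. Called squares extend over both sides of the start site for Nrg1 and Erbb4, those for Nrg3 lie at its start site and upstream of it, and the called circles are 5 for Nrg1 and 3 for Erbb4, 1 of them below 0.

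None of the 7 regions of Nrg3 or the 3 of Egfr was called between ON-BC and OFF-BC by limma, at an unadjusted p under 0.05, by edgeR or by DESeq2. When regions were instead taken from inside the gene whatever start site was nearest, Nrg3 held 17, all 17 of them called higher in pan-BC than in rods. Of these, 2 were called higher in ON-BC than in OFF-BC and none lower, beside 3.35% and 2.13% of all regions. At an unadjusted p under 0.05, by edgeR and by DESeq2 there was also none lower. The RNA had the opposite order. The replicate block called 1 higher, and leaving out single libraries was not run for regions taken this way. Nrg2 held 10, of which 4 were higher and 1 lower in pan-BC than in rods, shares near those of all regions (38.9% and 10.4%). Erbb3 held 2, of which 1, in an intron, was called lower in pan-BC (0 and 5.70, against 45.2 and 58.3 in rods).

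For reference, 13 of the 58 tested regions nearest the 4 ON bipolar marker genes were called higher in ON-BC than in OFF-BC by limma, as was 1 of the 18 nearest the 3 OFF markers. No region of either set was called lower in ON-BC by limma, at an unadjusted p under 0.05, by edgeR or by DESeq2.

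Few regions of the family were called between rods and cones. No region was called higher in rods and 2 were called lower, beside 0.503% and 8.92% of all regions. At an unadjusted p under 0.05 the numbers were 1 and 7, by edgeR also 1 and 7, and by DESeq2 none in either direction. The 2 were the Nrg1 promoter at -232 bp, with 0 and 1.36 in rods and 7.23 to 15.4 in cones (log2 difference -2.84, SE 0.47, limma adjusted p = 0.00842), and Erbb4 -31.0 kb, at 0 in both rod libraries and 2.89 to 8.45 in cones (limma adjusted p = 0.0435). The first call was lost without rod replicate 1, which left none, and the second was lost without any 1 of the other libraries except blue cone replicate 2.

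Peaks that the authors called in each library from the same reads were counted as well. Of the 52 regions, a peak overlapped by at least 1 bp 39 and 44 for the replicates of pan-BC, 37 and 37 for ON-BC, and 26 and 21 for OFF-BC. For photoreceptors the numbers were 7 and 6 (rods), 2 and 5 (blue cones), 4 and 3 (green cones) and 7 and 2 (double-sorted green cones). The number of peaks also differed between libraries, from 29410 to 94468, and was highest in pan-BC.

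The rest of the pathway was followed in 74 genes by role, 70 of which passed the filter and were tested by limma over 14024 genes. Between pan-BC and rods 16 were higher and 14 lower in pan-BC (42.9% of the 70), where 27.8% of all genes were higher and 15.8% lower. Each percentage of the 70 in this paragraph counts both directions, so it compares with the sum of both shares of all genes. Against blue cones 8 were higher and 10 lower (25.7%), beside 22.7% and 13.7%. Between ON-BC and OFF-BC 4 were higher and 1 lower (7.14%), beside 2.95% and 3.6%, and between rods and blue cones 4 were higher and 9 lower (18.6%), beside 4.63% and 11.3%. The median log2 difference of the 70 genes was -0.07, 0.06, 0.17 and 0.09 in these 4 comparisons in turn, where the median of all genes was 0.21, 0.16, -0.015 and -0.005.

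Of the 5 other ligands tested, 2 were called higher in ON-BC than in OFF-BC and none lower by limma or DESeq2. By edgeR and at an unadjusted p under 0.05, 1 was lower. Of all genes limma called 2.95% higher and 3.6% lower. Areg, which encodes amphiregulin, a ligand of EGFR, had a mean of 57.3 ± 32.8 in ON-BC and 0.736 in OFF-BC, where only 2 reads were counted (ratio 75.5, 95% exact interval 20.6 to 629; limma adjusted p = 7.64e-05). Tgfa, which encodes another ligand of EGFR, had 51.2 ± 11.5 and 0.736 (ratio 67.5, 18.4 to 563; limma adjusted p = 0.000474). Both were also higher in pan-BC than in photoreceptors, and Areg, with no read in blue cones, was at least 74.2-fold higher in pan-BC. Btc, the gene of betacellulin, which binds EGFR and ERBB4, had a mean of 107.7 ± 31.7 in ON-BC against 331.5 ± 88.7 in OFF-BC, which was not called (log2 difference -1.62, SE 0.20, limma adjusted p = 0.0527). Against photoreceptors pan-BC was lower, with a mean of 200 (SD 18.8), below rods at 781.3 ± 89.8 and blue cones at 1993 ± 233 (limma adjusted p = 0.00033 and 2.78e-08 for pan-BC against each). Egf was lower in pan-BC than in blue cones (53.9 against 262.7). Of the ligand-processing genes, Rhbdf2, an iRhom needed for the shedding protease ADAM17, was higher in ON-BC than in OFF-BC (44.7 ± 13.0 against 1.88 ± 1.24; limma adjusted p = 2.41e-06) and, at 35.3 ± 5.50 in pan-BC, below its level of 430.9 ± 74.5 in rods and 238.1 ± 31.0 in blue cones. Adam17 itself was higher in rods (802.8) than in pan-BC (261.9).

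Of the 15 adaptors, 4 were higher in pan-BC than in rods (Shc2, Nck2, Shc3 and Gab2) and none was lower by limma, at an unadjusted p under 0.05 or by DESeq2, with 1 lower by edgeR. The share called higher (26.7%) was near the 27.8% of all genes. Shc2 had a mean of 81.2 ± 8.67 in pan-BC and no read in blue cones, at least 108-fold higher. Shc3, which encodes a neuronal SHC adaptor, was higher in ON-BC than in OFF-BC (45.03 ± 8.47 against 3.04 ± 3.40; limma adjusted p = 0.00294) and had no read in blue cones, at least 54.3-fold lower than in pan-BC. Gab1 was lower in pan-BC than in blue cones (25.7 against 198.2; log2 difference -2.90). Of the 11 PI3K-AKT genes, Pik3r1, a regulatory subunit, was lower in ON-BC than in OFF-BC, at 33.2 ± 10.8 against 261.3 ± 28 (log2 difference -2.98, SE 0.21, limma adjusted p = 2.61e-06). It was the only pathway gene called lower there by limma and by DESeq2, where edgeR called 2. Pik3r1 was also lower in bipolar cells than in photoreceptors, with pan-BC at 137.4, rods at 1950 and blue cones at 1365. For Akt1, pan-BC at 750.9 exceeded rods at 125.2 and blue cones at 232.4.

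Among the RAS-MAPK genes, calls were made in both directions. Hras (52.8 against 297.0) and Mapk3 (204.0 against 1127) were lower in rods than in pan-BC, and Nras (4979 against 1377) and Braf (10090 against 3291) were higher. Among the 9 other effectors, 4 (44.4%) were called higher in pan-BC than in rods, beside 27.8% of all genes. They were Stat5b (1236 ± 101 against 16.4 ± 6.19), Src (150.6 ± 14.4 against 1.39 ± 0.67), Stat5a and Yap1. Both Stat5 genes and Src were also lower in rods than in blue cones, where Stat5b had a mean of 997.2 ± 109. All 3 receptor scaffolds were called higher in rods than in pan-BC, as were 15.8% of all genes. The pan-BC minus rod log2 differences were -3.19 for Mpdz, -1.53 for Dlg4, which encodes the synaptic scaffold PSD-95 that binds ERBB4, and -1.49 for Erbin. The call of Erbin was lost without pan-BC replicate 1 or 2 or rod replicate 1 or 2.

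Of the 12 tested receptor inhibitors, Spry4, an antagonist of receptor tyrosine kinase signalling, had a log2 difference of 8.08 between pan-BC and rods (754.0 ± 118 against 2.11 ± 1.92; limma adjusted p = 3.72e-12) and lower in rods than in blue cones (298.8 ± 8.77; limma adjusted p = 1.81e-10). Its paralog Spry2 went the other way, with rods at 13210 ± 1010, pan-BC at 2263 ± 415 and blue cones at 1195 ± 57.9. Lrig1, which promotes the degradation of ErbB receptors, was higher in rods (412.0 ± 50.6) than in pan-BC (26.9 ± 10.1) and in blue cones (84.3). Usp8 was lower in pan-BC than in both. The adaptor Nck2 had a mean of 1.73 ± 2.12 in rods, against 73.0 ± 6.88 in pan-BC and 59.8 ± 12.2 in blue cones. No receptor inhibitor, scaffold, RAS-MAPK gene or other effector was called between ON-BC and OFF-BC by limma. For the inhibitors 1 was higher and 1 lower at an unadjusted p under 0.05 and 1 was higher by edgeR and by DESeq2, and the other 3 groups had none by any of these.

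**Figure D5:**
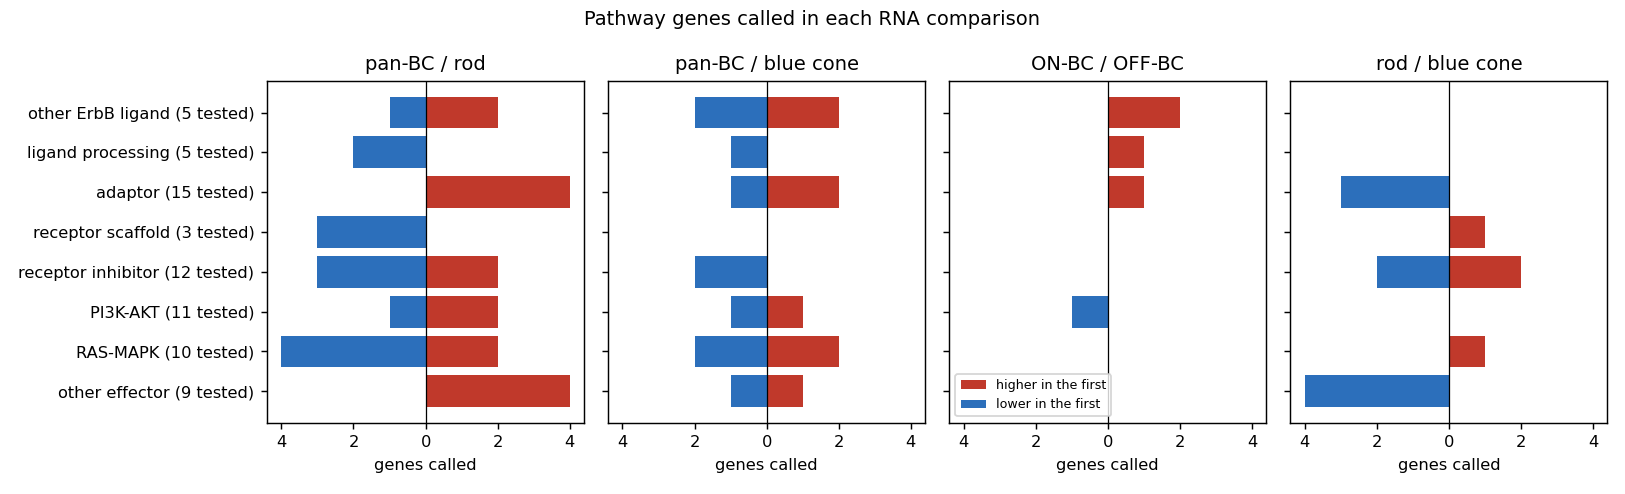
Number of tested pathway genes called by limma in each role group, higher (right) or lower (left) in the first population, 1 panel per comparison. Calls are most numerous between pan-BC and rods (16 higher, 14 lower) and least numerous between ON-BC and OFF-BC (4 higher, 1 lower).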

How the data were processed

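RNA-seq was measured in 15 libraries and ATAC-seq in 12, with peak lists for 14. RNA reads were aligned by the authors with STAR and assigned to RefSeq genes by HTSeq. Their ATAC-seq reads passed through Bowtie2, SAMtools and Picard, nucleosome-free fragments were kept, peaks were called per library with MACS2 2.1.1 and reads were counted in 200-bp regions. The paper and the submitters' notes name different Bowtie2 and SAMtools releases. RPKM was computed from recovered reads, RefSeq exon length and counted reads. The library kit for RNA keeps no strand. The deposited signal values in the gene and region tables are counts that the authors divided by 1 size factor per library. All 230384 gene values and 1212862 region values above 0 (100.0%) gave whole reads, within 0.01 read, when divided by 1 step for the library. The authors' peak lists also hold a score, a fold enrichment over background, and −log10 of the p-value and q-value. Only the positions of the peaks were used.

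Tests used limma 3.58.1 (treat, trended prior) on log2(value + 1) against a log2 change of 1, with Benjamini-Hochberg adjusted p under 0.05, all libraries of an assay in 1 model and edgeR's filter on low counts (14024 genes, 108448 regions). Alternatives were edgeR 4.0.16 and DESeq2 1.42.0 on recovered reads, TMM scaling, pseudocounts of 0.5 and 8, no filter, a replicate block, regions by gene span and leaving out each library. A region belonged to the gene with the nearest curated RefSeq start site. The labels call the samples biological replicates without saying whether animals were pooled, so p-values measure the spread between these samples. Intervals are exact at 95% and cover counting error only. The members, gene lists and markers were chosen with earlier results of these data known. Named were all members, up to 3 called pathway genes per direction and comparison with the largest change, other called pathway genes by role (chosen after their values were seen), the 3 genes most correlated with each member whose mean reached 100, the region nearest each member's start site, and each member's called region with the largest change. Some pathway genes are counted but not reported by name here. Other called regions were named after their values were seen.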

Additional observations from a re-analysis of the deposited data

How the results depend on the processing

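The counts of called pathway genes in all 4 RNA comparisons and of the family's regions called between pan-BC and rods or cones stayed within 1.5 times of the reported counts under every alternative run, and no call reversed. Of the 66 pathway calls, 60 were kept under all alternatives (5 of 5 between ON-BC and OFF-BC), and the others were lost in 23 of 1452 recomputed calls. Region calls were lost in 102 of 1748. For ON-BC against OFF-BC, where 8 regions were called, edgeR called 14, TMM scaling 5 and a pseudocount of 0.5 also 5, and leaving out 1 library gave 2 to 8. For rods against cones, where 2 were called, edgeR called 8, DESeq2 0, a pseudocount of 8 called 0, the replicate block 1 and the regions inside the genes 1, and leaving out 1 library gave 0 to 3. Where 1 ATAC-seq library was left alone in its group, it was assumed to vary like the other groups. The causes were not tested. Differences in member RNA moved by more than the spread between replicates in 34 of 440 recomputations, chiefly for genes at or near 0 in a group, where the pseudocount sets the value. The rod minus blue cone difference of Nrg1, which rests on 4 reads, turned from 0.38 to -0.27 without rod replicate 1.

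ON-BC and OFF-BC libraries with the same number share a postnatal day in the labels, which do not say that they share animals. The correlations of their deviations in RNA were -0.08, 0.22 and -0.07, and ON-BC replicates 1 and 3 correlated best with OFF-BC replicates 3 and 1 (0.14 and 0.21), so the numbers were not taken to pair the samples. The replicate block gave 1 shared effect to all libraries of an assay with the same number, photoreceptors included. It therefore does not model a pairing of ON-BC with OFF-BC alone, and whether these samples shared animals remains unknown. With the replicate block 7 pathway genes were called between ON-BC and OFF-BC in place of 5, and 7 regions in place of 8. The block moved no other count by more than 1.5 times apart from that of rods against cones. Depth limits Egfr, Erbb2 and Erbb3, whose counts lay near 0, and for Egfr and Erbb2 no order of the populations could be read.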
